A study of Mus musculus with 6 samples.

Results

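TAF4b peaks were examined at the genes that carried more than 1 of them at their promoters, in mouse prospermatogonia, germ cells of the male embryo that precede the spermatogonia. The genes were chosen by the TAF4b peaks of 1 library: every gene named by 2 or more promoter-TSS peaks of TAF4b replicate 1 was taken, where promoter-TSS is the deposited class for peaks at a transcription start site (TSS). The rule found 630 peaks at 310 genes, among 5756 promoter peaks and 7861 peaks of any class in that list. Of the genes with any promoter peak, 310 of 5391 (5.75%) met the rule, and this count follows from the choice, so nothing is read from it. A further 45 promoter peaks had a transcript identifier that was not matched to a gene and were left out.

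The samples came from the CUT&RUN experiment at E16.5 (days of embryonic development). CUT&RUN is an assay in which an antibody tethers a nuclease that cuts out the DNA around its target for sequencing. There were 6 samples in 3 groups of 2 replicates: an antibody against TAF4b, an antibody against histone H3 trimethylated at lysine 4 (H3K4me3), and IgG, a control antibody. In every group the labels give male C57BL/6 embryos, wild type for Taf4b, and parents homozygous for an Oct4-EGFP transgene, a reporter that marks germ cells with green fluorescence. Gonads were dissociated, dead cells were discarded and the rest were sorted by GFP. The labels call the sequenced cells prospermatogonia and do not say how many embryos were pooled. The lists of TAF4b replicates 1 and 2 and H3K4me3 replicates 1 and 2 were used, and IgG was not analysed here.

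TAF4b is a gonad-enriched relative of TAF4, a core subunit of TFIID, the general transcription factor that binds core promoters and helps to place RNA polymerase II at the start site. H3K4me3 marks the nucleosomes around active and poised start sites, and it is usually broader than the footprint of TFIID. Many mammalian genes have alternative promoters, which give transcripts with different first exons and sometimes proteins with different amino termini, and many share a stretch of promoter DNA with a gene on the opposite strand.

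The lists differed in size between replicates: TAF4b replicate 2 held 848 peaks, and the H3K4me3 lists held 64891 and 1730 regions in replicates 1 and 2. The depth is unknown, because read totals are not given in the sources used here. Of 8 germ cell markers, 5 had a TAF4b replicate 1 promoter peak (Ddx4, Dazl, Dnd1, Mael and Sall4) and 4 an H3K4me3 replicate 1 promoter region. Of 15 markers of Sertoli, Leydig, endothelial cells and macrophages, none had such a TAF4b peak and 5 (Sox9, Dhh, Wt1, Insl3 and Kdr) had such an H3K4me3 region. None of these markers had a promoter region in the list of H3K4me3 replicate 2. Whether other cell types contributed to the H3K4me3 regions was not tested.

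Peaks of TAF4b replicate 1 had a fixed width, and 8 of them are shown to let a reader see what pairs of promoter peaks look like at the level of DNA. They were taken from the genes the results turn on, among peaks outside every annotated exon, and read from GRCm39 in the direction of the gene. Letters are lower case, and capitals mark matches on either strand to the 9 motifs described with the sequence composition. The 2 peaks of Celf2, on the minus strand, are the most widely spaced pair: chr2:7514391-7514533, outside any annotated transcript, and chr2:6877639-6877781, in an intron of Celf2.
Celf2 upstream peak: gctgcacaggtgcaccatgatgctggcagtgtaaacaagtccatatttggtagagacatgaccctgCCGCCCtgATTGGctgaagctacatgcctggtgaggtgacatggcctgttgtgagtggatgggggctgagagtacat
Celf2 downstream peak: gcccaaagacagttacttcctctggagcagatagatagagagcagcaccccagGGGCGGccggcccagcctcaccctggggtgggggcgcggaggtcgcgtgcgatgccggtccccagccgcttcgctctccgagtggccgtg
For Dazl (minus strand, chr17:50600682-50600824) the upstream peak is shown, the stronger of its 2 peaks, which lay outside any annotated transcript and under no H3K4me3 region.
Dazl upstream peak: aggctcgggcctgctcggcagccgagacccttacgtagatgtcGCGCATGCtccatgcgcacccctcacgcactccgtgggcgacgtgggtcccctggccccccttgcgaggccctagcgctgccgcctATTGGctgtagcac
For Cic (plus strand, chr7:24981413-24981555) the peak of the downstream start is shown, in an intron of the transcripts that start upstream.
Cic downstream peak: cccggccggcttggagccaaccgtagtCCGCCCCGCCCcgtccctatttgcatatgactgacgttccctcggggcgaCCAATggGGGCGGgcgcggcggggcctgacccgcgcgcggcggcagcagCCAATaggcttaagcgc
The upstream peaks of Hdgfl2 (plus strand, chr17:56386108-56386250), Gsk3b (plus strand, chr16:37909150-37909292), Sp1 (plus strand, chr15:102314216-102314358) and Zdhhc5 (minus strand, chr2:84546050-84546192) stand for closely spaced pairs and lay outside any annotated transcript.
Hdgfl2 upstream peak: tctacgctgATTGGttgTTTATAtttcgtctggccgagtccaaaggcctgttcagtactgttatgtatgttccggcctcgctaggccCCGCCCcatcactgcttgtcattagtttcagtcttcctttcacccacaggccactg
Gsk3b upstream peak: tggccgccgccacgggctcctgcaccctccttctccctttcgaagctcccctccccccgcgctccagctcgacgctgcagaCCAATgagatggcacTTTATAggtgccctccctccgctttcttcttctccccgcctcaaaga
Sp1 upstream peak: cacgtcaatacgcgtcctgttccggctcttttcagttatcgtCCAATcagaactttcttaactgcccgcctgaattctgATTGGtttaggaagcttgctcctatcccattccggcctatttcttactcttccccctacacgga
Zdhhc5 upstream peak: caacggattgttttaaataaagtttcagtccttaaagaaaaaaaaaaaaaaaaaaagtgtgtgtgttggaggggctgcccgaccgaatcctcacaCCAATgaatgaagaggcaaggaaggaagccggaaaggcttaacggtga
These sequences hold between 1 and 5 matches each: the Cic peak holds 3 GC boxes, 2 of them overlapping, and 2 CCAAT boxes, while the downstream Celf2 peak holds a single GC box.

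Most of the genes carried a pair of peaks. Among the 310 genes, 300 had 2 promoter peaks and 10 had 3, against 5081 genes with 1, and 291 were protein-coding, 16 were long noncoding RNA (lncRNA) genes and 3 had no settled gene type. The peak score, the authors' value in the deposited list with a scaling that is not stated, had a median of 16.4 over the 630 peaks (6.95 to 64.5) and of 17.4 over the peaks of genes with 1. The weakest peak of a gene had a median score of 11.9 and the strongest 22.3. Within 320 pairs of neighbouring peaks the stronger score was a median of 1.48 times the weaker (at most 5.92 times), and 163 pairs lay within 1.5 times. Scores of the upstream and downstream peak of a pair, which come from 1 library, had a Pearson r of 0.141 and a Spearman rho of 0.136 across the 320 pairs, given as a description. Just outside the rule, 309 of the 5081 genes with 1 promoter peak had a further listed peak of another class nearest to them, at a median of 2429 bp from the start. Such a further peak was also listed for 35 of the 310 genes. Members made up 10.9% of promoter peaks (630 of 5756), and between 6.45% (X) and 16.4% (7) on single chromosomes other than Y, which had 2 promoter peaks.

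Neighbouring peaks mostly lay close together, with a long tail that reached across whole genes. Distances between peak centres ran from 275 to 636752 bp, with quartiles of 424, 544.5 and 946 bp. Of the 320 pairs, 137 were up to 500 bp apart, 106 from 500 to 1000 bp, 26 from 1000 to 5000 bp, 36 from 5000 to 50000 bp and 15 over 50000 bp. Each peak is assigned to 1 transcript in the deposited annotation, and 168 pairs (52.5%) had starts at most 100 bp apart, called a shared start here. In those pairs the spacing had a median of 463.5 bp (275 to 939), the centre of the upstream peak lay at a median of -499.5 bp from the start and that of the downstream peak at -38 bp. The promoter-TSS class reaches a limited distance from a start, so that peaks assigned to 1 start cannot lie far apart, and the short spacings at shared starts follow from the class the rule used. The other 152 pairs (47.5%, 95% Wilson interval 42.1 to 53.0) were assigned to starts over 100 bp apart and had a median spacing of 1051 bp, and 151 of the 310 genes held such a pair. In those pairs the upstream and downstream peaks lay at medians of -88 and -95 bp from their own starts.

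**Figure D1:**
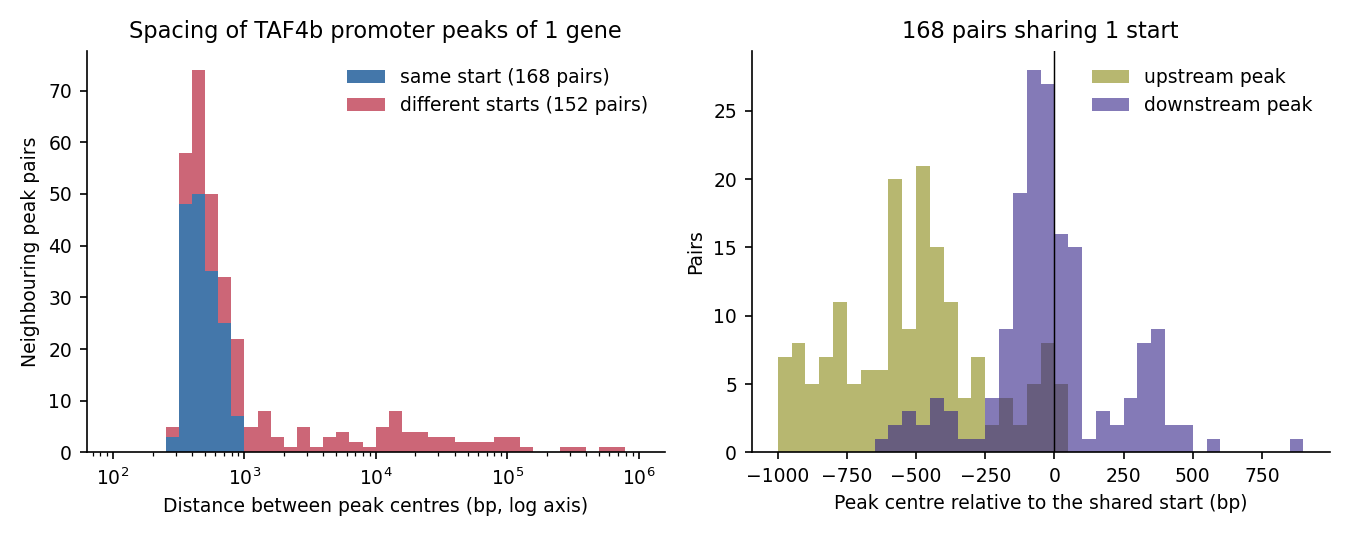
Left, the distance between the centres of neighbouring TAF4b promoter peaks of 1 gene (bp, log axis) against the number of pairs, stacked for 168 pairs that share a start and 152 at different starts. Right, the position of the upstream and downstream peak relative to the shared start (bp, 50 bp bins); shared-start pairs span 275 to 939 bp, a range that the promoter-TSS class limits.

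The share of pairs at separate starts depended on which annotated start was taken. When each peak was set against the nearest start of its gene in GENCODE M39 in place of the transcript named in the deposited list, 250 of 320 pairs (78.1%) lay at starts over 100 bp apart. Those 250 pairs had a median spacing of 611 bp, against 1051 bp for the 152 pairs at different starts in the deposited annotation. Of the pairs that shared a start in the deposited annotation, 107 lay at separate nearest starts. Protein-coding members had a median of 5 groups of annotated starts each, against 4 for protein-coding genes with 1 promoter peak. A gene with more annotated starts has more places for a promoter-TSS peak, so the rule bears on this difference. In 63 of the 152 pairs at different starts both assigned transcripts had an annotated coding sequence, transcripts of nonsense-mediated decay included, and in 36 of those 63 the first coding base differed. At shared starts it differed in 1 of 121. With both transcripts of the protein-coding type, the counts were 32 of 58 and 1 of 112. The named transcripts differed in 158 of 320 pairs, which include all 152 at different starts. Most pairs at shared starts thus name the same transcript for both peaks. Their counts were nearly fixed in advance, so nothing is read from them. For 47 of the 630 peaks the centre lay outside the stretch from 1000 bp before to 100 bp after its named start in GENCODE M39, a release other than the one the lists were annotated with.

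The 10 genes with 3 promoter peaks were Cic, an HMG-box repressor, Jarid2, a cofactor of Polycomb repressive complex 2 (PRC2), Phf21a, Mier1, Mbtd1, Ptprs, Rnf44, Smim14, Trip12 and Bbip1. Of the list of chromatin regulators, Jarid2 alone was among them. At Cic on chromosome 7 the peaks had scores of 37.7 (chr7:24966895-24967037), 47.6 (chr7:24967345-24967487) and 37.2 (chr7:24981413-24981555). The first pair was 450 bp apart at 1 start and the last peak lay 14068 bp further, at -120 bp from a downstream start whose transcript has another first coding base. Cic peaks 1 and 2 lay under an H3K4me3 replicate 1 region of 1800 bp (score 155.0), and the third under a region of 1843 bp (score 140.1) that a replicate 2 region also covered. Of its 3 peaks the second overlapped a peak of TAF4b replicate 2 (score 101.2). That second peak lay closer to a start of a lncRNA gene on the opposite strand than to any start of Cic.

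Other genes of this group had the same layout of a close pair and a distant peak, or 3 peaks in a row. Rnf44, a RING finger protein, had scores of 35.7, 34.2 and 27.8 from upstream to downstream, with the first peak 5860 bp from the close pair of 479 bp, and regions of 2145 and 2516 bp over them. Ptprs, a receptor tyrosine phosphatase, had scores of 17.9, 27.3 and 25.3, with spacings of 13947 and 354 bp, and its last peak overlapped a TAF4b replicate 2 peak (score 48.6). Smim14 had its outlying peak 44250 bp downstream of a pair 655 bp apart. Jarid2 peaks had scores of 20.8, 14.4 and 11.4; the first lay under no listed H3K4me3 region, and the other 2 under separate regions of 500 and 2447 bp. The peaks of Bbip1, a subunit of the ciliary BBSome, had scores of 8.93, 8.44 and 21.8 with spacings of 552 and 398 bp and lay under no H3K4me3 region. At Trip12, a ubiquitin ligase, 1 of 3 peaks lay under an H3K4me3 replicate 1 region, and another under a replicate 2 region.

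**Figure D2:**
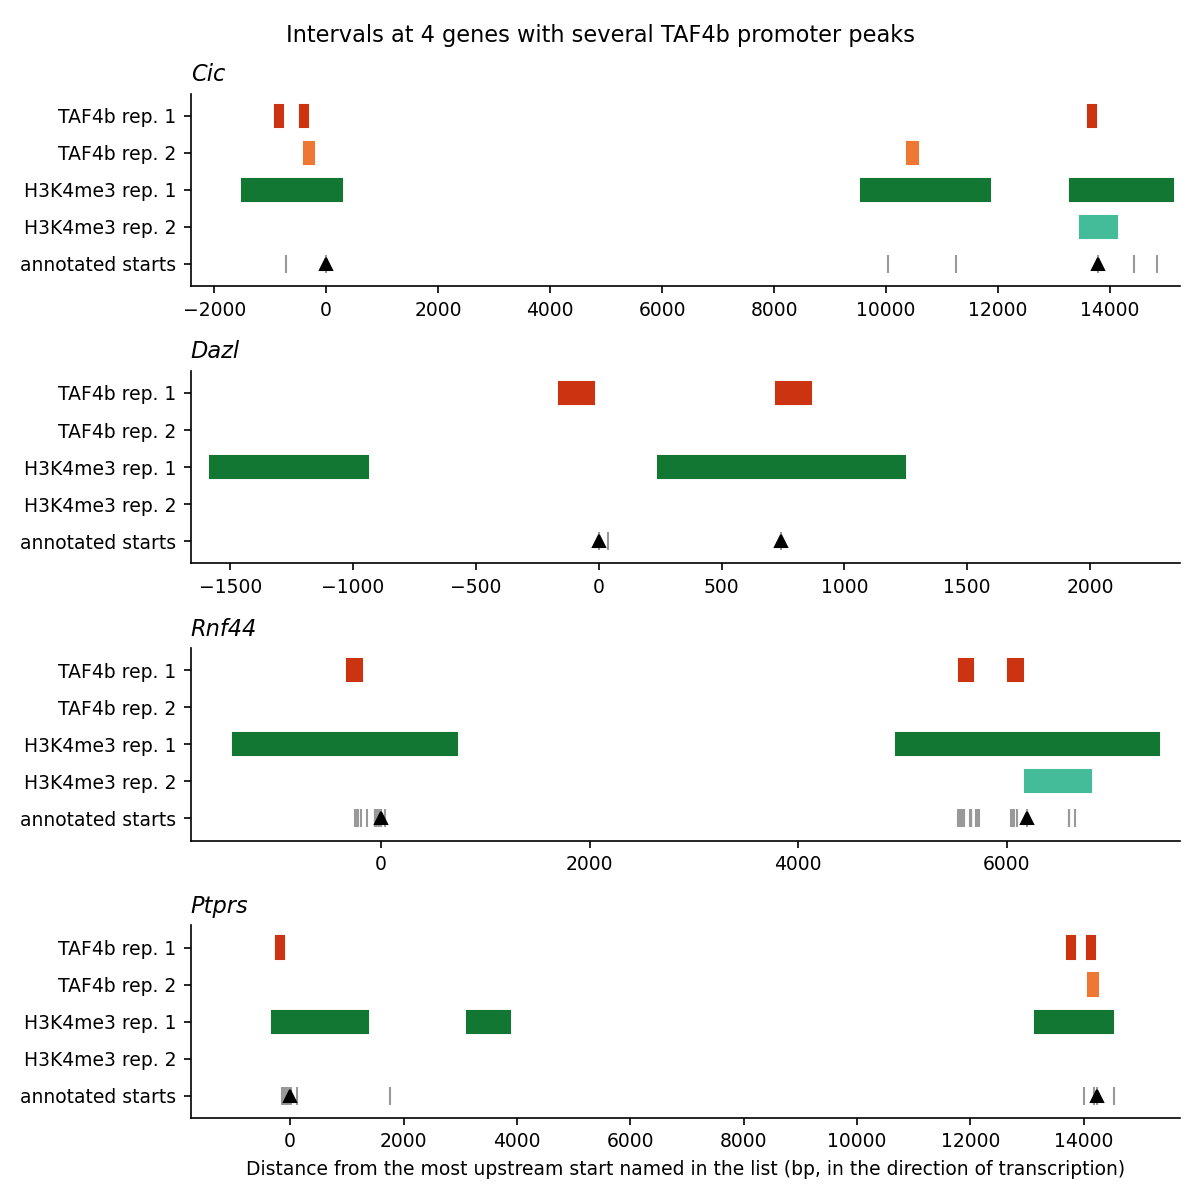
Intervals of the 4 lists and annotated starts at Cic, Dazl, Rnf44 and Ptprs, by distance from the most upstream start named in the list (bp, in the direction of transcription); black triangles are starts named for a peak and grey ticks are other annotated starts. Cic, Rnf44 and Ptprs each show a close pair and a distant peak under separate H3K4me3 regions, while the upstream Dazl peak lies between regions.

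The widest pairs spanned long genes with annotated internal starts, whose use was not tested. The 8 widest were at Celf2, an RNA-binding splicing regulator (636752 bp), Pard3, a cell polarity scaffold (515129 bp), Nav2 (383834 bp), Aopep (307778 bp), Hivep1, a zinc finger factor (132164 bp), Agap1 (125523 bp), Specc1 (120152 bp) and Fndc3a (107046 bp). Celf2 peaks had scores of 11.4 upstream and 9.43 downstream, Pard3 peaks 10.9 and 12.9, and Nav2 peaks 11.4 and 7.94. These scores lie below the median of 16.4 over member peaks. The 2 highest scores in the 8 pairs were at the downstream start of Specc1 (31.8) and of Aopep (24.3). At Pard3, Nav2, Aopep, Hivep1 and Fndc3a both peaks lay under H3K4me3 replicate 1 regions of their own, 500 to 2476 bp wide. At Celf2 and Agap1 the downstream peak alone lay under a region, of 500 bp in each case, and at Specc1 neither did. Nav2 had protein-coding transcripts with different first coding bases at the 2 starts. At Hivep1 the first coding base also differed, and the downstream transcript is annotated as a target of nonsense-mediated decay. None of these 16 peaks overlapped a peak of TAF4b replicate 2.

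The closest pairs were at P4hb, a protein disulphide isomerase (275 bp), Vdac2, a channel of the outer mitochondrial membrane (294 bp), Tceanc2 (302 bp), Hdgfl2 (316 bp) and Ocel1 (316 bp). P4hb scores were 24.3 upstream and 22.3 downstream, and Vdac2 scores 12.4 and 8.93. Both peaks of P4hb, Vdac2, Hdgfl2 and Ocel1 lay under 1 H3K4me3 replicate 1 region, of 1166 to 2117 bp. At Tceanc2 the downstream peak lay under a replicate 1 region and the upstream peak under a replicate 2 region. No 2 promoter peaks of 1 gene were closer than 275 bp, with peaks of 142 bp (end minus start).

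H3K4me3 was not used by the rule and covered most of these peaks. In H3K4me3 replicate 1, 515 of 630 peaks lay under a region (81.7%, Wilson interval 78.5 to 84.6), against 86.3% of all promoter peaks and 86.9% (85.9 to 87.8) of peaks of genes with 1. In replicate 2 the share was 52 of 630 (8.25%), against 8.36% of all promoter peaks and 8.31% of peaks of genes with 1. The lower share in replicate 1 was also seen among peaks within 100 bp of a start: 339 of 418 members (81.1%) and 3630 of 4169 peaks of genes with 1 (87.1%). It was not seen when the highest-scoring region over the peak had to be of the promoter-TSS class itself. That held for 471 of 630 member peaks (74.8%) and for the lower share of 3575 of 5081 peaks of genes with 1. These are shares in 1 library of each kind, their intervals cover counting error, and peaks of 1 gene share a promoter, so no test was made. By gene, every peak lay under a replicate 1 region at 222 of 310 genes, some at 63 and none at 25.

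Pairs of peaks were set against the H3K4me3 regions by their spacing. A region can hold both peaks only where it is at least as long as the gap between them, and replicate 1 regions had a median width of 779 bp and a maximum of 6768 bp, so pairs over 5000 bp apart could hardly share one. In replicate 1, both peaks lay under the same region in 172 of 320 pairs (53.75%), under 2 regions in 57, and neither was covered in 27, while the upstream peak alone was covered in 34 and the downstream peak alone in 30. Up to 1000 bp apart, 165 of 243 pairs lay under 1 region and 4 under 2. Over 1000 bp, 7 of 77 lay under 1 region and 53 under 2, and from 5000 to 50000 bp 32 of 36 lay under 2. The stretch between the centres was covered by a median of 100% up to 1000 bp and of 11.6% beyond. Among pairs at shared starts 119 of 168 lay under 1 region and 30 had a single covered peak. At different starts 53 of 152 lay under 1 region, 57 under 2, and the upstream and downstream peak alone were covered in 17 each. In replicate 2, both peaks lay under 1 region in 10 of 320 pairs, 1 peak was covered in 32, and neither in 278.

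**Figure D3:**
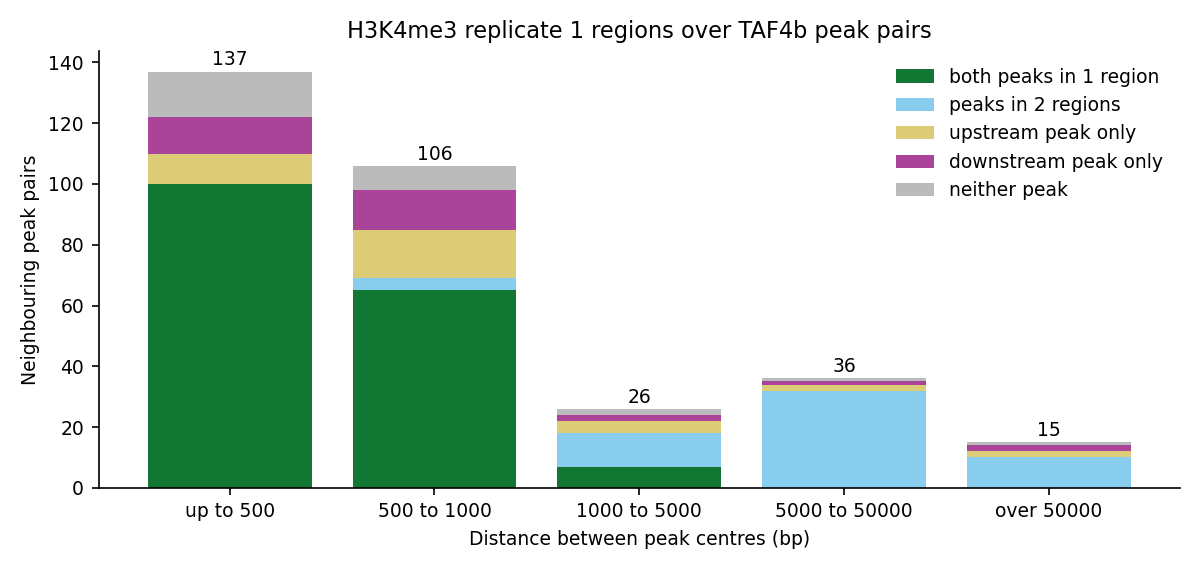
Number of neighbouring TAF4b peak pairs (vertical axis) by distance between peak centres (bp, horizontal axis), coloured by how H3K4me3 replicate 1 regions covered the 2 peaks; the total stands above each bar. One shared region holds 100 of 137 pairs up to 500 bp apart, and 2 regions hold 32 of 36 pairs from 5000 to 50000 bp apart.

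The regions that held both peaks were wide. Their width had a median of 1991 bp (937 to 4872) and their score a median of 132.7. Counted once each, 341 regions lay over member peaks with a median width of 1562 bp, and 102 of them (29.9%) were at least 2000 bp wide. Over the peaks of genes with 1, 4358 regions had a median width of 1499 bp and 20.3% were at least 2000 bp wide. A region over both peaks of a pair has to reach from one to the other, so its width is tied to the choice of the members and is given as a description. Of the member peaks under a region, 91.5% lay under one whose own deposited class was promoter-TSS, against 81.0% for genes with 1. This share counts peaks, and the 515 member peaks lay under 341 regions. A region over both peaks of a pair is thus counted for each, and the share is given as a description.

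TAF4b replicate 2 was also not used by the rule. Of the member peaks, 70 of 630 (11.1%, 8.89 to 13.8) overlapped a peak of replicate 2, against 10.6% of all promoter peaks and 10.5% of peaks of genes with 1. In 250 of 320 pairs neither peak was found, in 69 a single peak was, and in 1 both were. That pair belongs to Ppp1r10, a nuclear regulatory subunit of protein phosphatase 1. Its peaks at chr17:36227266-36227408 and chr17:36227635-36227777 had scores of 25.8 and 28.3 in replicate 1 and 68.8 and 56.7 in replicate 2, scales that are not comparable, and both lay under an H3K4me3 region of 3830 bp. Of 310 genes, 69 (22.3%) had at least 1 peak found, and a gene with several peaks has more than 1 chance to be counted so.

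The peak found again was mostly the stronger of its pair: it had the higher replicate 1 score in 63 of 69 pairs, the lower in 5 and an equal score in 1. When all promoter peaks were split by score into 10 classes of about equal size, 33 of 69 member peaks (47.8%) and 246 of 502 peaks of genes with 1 (49.0%) were found in the top class. In the lowest class no member peak of 89 and no peak of genes with 1 of 483 was found. At different starts the upstream peak was found in 25 pairs and the downstream peak in 9, and the upstream peak had the higher score in 94 of these 152 pairs and the lower in 54. At shared starts the upstream peak was found in 14 pairs and the downstream peak in 23, and the upstream peak had the higher score in 75 of 168 and the lower in 90. By the nearest start of the gene, 250 pairs lay at different starts, with the upstream peak found in 31 and the downstream peak in 19. In the 70 pairs at shared nearest starts these counts were 8 and 13. Applied to replicate 2 itself, the rule gave 3 genes of 740 with a promoter peak: Ppp1r10, Cic and mt-Tt, a mitochondrial transfer RNA gene that was not among the 310. At Cic the second replicate 2 peak (chr7:24978189-24978377, score 44.5) lay between the replicate 1 peaks.

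**Figure D4:**
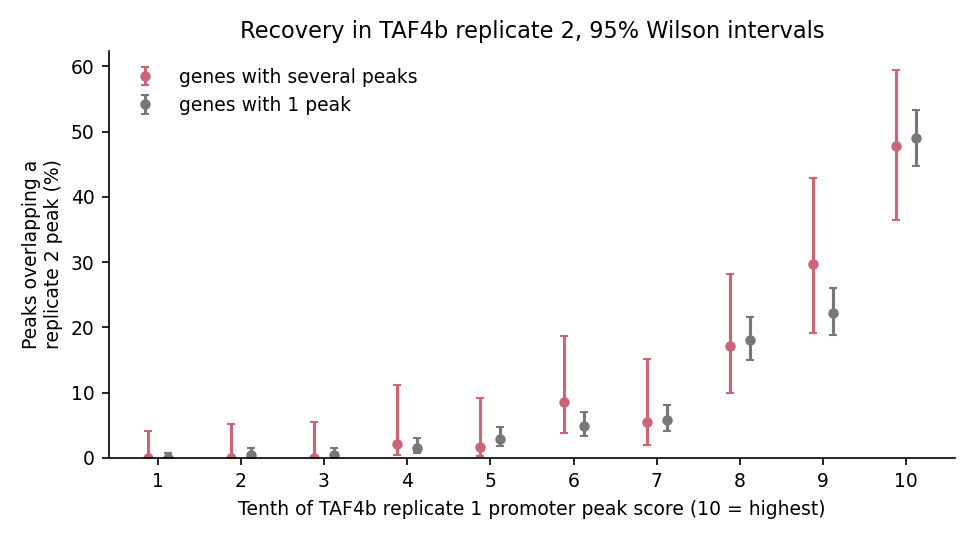
Share of TAF4b replicate 1 promoter peaks that overlap a replicate 2 peak (%, vertical axis) by class of the replicate 1 score (10 classes of about equal size, horizontal axis), for genes with several peaks and genes with 1, with 95% Wilson intervals for counting error. Both groups rise from none in the lowest class to 47.8% and 49.0% in the highest.

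**Figure D5:**
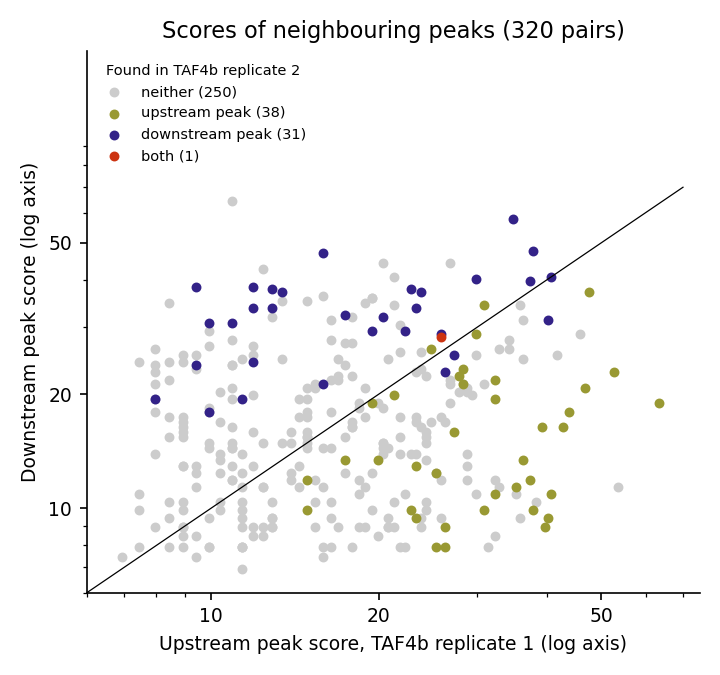
Replicate 1 scores of the upstream (horizontal) and downstream (vertical) peak of 320 neighbouring pairs, log axes, with the line of equal scores; colours give which peak was found in TAF4b replicate 2. Found upstream peaks lie mostly below the line and found downstream peaks mostly above it, 63 of 69 on the side of the higher score.

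Some peaks lay closer to a start of another gene than to one of their own. For 188 of 630 member peaks (29.8%) a start of another gene was closer to the centre than any start of the peak's own gene, against 21.4% of all promoter peaks and 20.5% of peaks of genes with 1. Of the member peaks 66.3% lay within 100 bp of a start of their own gene, against 82.1% for genes with 1, and the rule by asking for a second peak bears on both differences. On the opposite strand lay 175 of these starts, 93 of them of protein-coding genes and 81 of lncRNA genes. At shared starts this held for 71 of 168 upstream and 46 of 168 downstream peaks, and at different starts for 45 of 152 and 30 of 152. In 167 of 320 pairs neither peak was of this kind. At least 1 such peak was carried by 149 of 310 genes, and without these peaks 165 genes were left with several, an alternative chosen after seeing the data. Fam76b is one such case. Its upstream peak (chr9:13738299-13738441, score 34.7) lay 5 bp from a start of Cep57, a centrosomal protein gene on the opposite strand, and its downstream peak (score 57.6) 134 bp before a Fam76b start. The downstream peak overlapped a TAF4b replicate 2 peak (score 101.2) and lay under no H3K4me3 region, while the upstream peak lay under one of 1200 bp. At Hnrnpul2 both peaks lay closer to starts of Ttc9c (55 and 43 bp) than to starts of Hnrnpul2. Of the 44 member genes described here, 20 (45.5%) carried such a peak. Among them are the stronger, upstream peak of Gtf2h1, 18 bp from a start of Hps5, and the stronger peak of Hnrnpl, 66 bp from a lncRNA start. The upstream peak of Kmt2b lay 208 bp from Mir3569. Further cases are the second peak of Cic, the first peaks of Smim14, Mier1 and Trip12, and the upstream peaks of Sp1, Hivep1 and Eed. At Sap130 and Tceanc2 both peaks were of this kind. Which gene a peak serves was not tested.

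The 8 genes whose weaker peak scored highest were Hdgfl2 (40.7 for both peaks), Cic, Sp1 (37.2 and 39.7), Fam76b, Hnrnpul2 (40.2 and 31.3), Gatad2a (36.2 and 31.3), Zdhhc5 (30.8 and 34.2) and Sap130 (29.8 and 40.2), in the order upstream and downstream. They include Sp1, the factor that binds GC boxes, Gatad2a, a subunit of the NuRD complex, and Sap130, a subunit of the Sin3 deacetylase complex. At Sp1 the upstream peak lay under an H3K4me3 replicate 1 region of 1208 bp, and the downstream peak, 345 bp away, lay under none and overlapped a TAF4b replicate 2 peak (score 109.3). At Hdgfl2 both lay under a region of 1166 bp and the downstream peak overlapped a replicate 2 peak (score 76.9). At Zdhhc5, a palmitoyltransferase, both lay under a region of 3127 bp and the upstream peak was found in replicate 2 (score 76.9). The peaks of Gatad2a lay 21992 bp apart, under regions of 2358 and 800 bp.

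In GC content the members were close to other promoter peaks. Their GC content had a median of 65.7%, against 64.3% for genes with 1. The 9 motifs searched on both strands of each peak were the GC box GGGCGG, the CCAAT box CCAAT, the ETS core CCGGAAG, the CRE TGACGTCA, the E-box CACGTG, the NRF1 core GCATGCGC, the TATA box TATAAA, the YY1 core AAGATGGCG and the GFY core ACTACAATT, none of which contains another. The GC box was in 56.7% of member peaks and 56.9% of all promoter peaks, and the CCAAT box in 38.1% and 37.9%. The ETS core was in 9.21% of member peaks (7.19 to 11.7), in 14.2% of peaks of genes with 1 (13.3 to 15.2) and in 13.6% of all promoter peaks. In 200 bp around the peak centre the ETS shares were 13.8% of member peaks and 17.9% of peaks of genes with 1. Members lay less often within 100 bp of a start (66.3% against 82.1%), and ETS shares at matched distances were not compared. The CRE was in 3.97% of member peaks, the E-box in 7.46%, the NRF1 core in 2.86%, YY1 in 1.75%, TATA in 1.27% and GFY in 0.635%, beside 4.45%, 7.24%, 4.27%, 1.37%, 1.74% and 0.903% of all promoter peaks. Both peaks of a pair held a GC box in 103 of 320 pairs and a CCAAT box in 49. A match describes letters and is not a binding site.

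Genes of the lists with several promoter peaks were few in each, and are given beside the listed genes with any promoter peak. Over all genes with a promoter peak the share was 5.75% (310 of 5391), and in the lists it ran from 4.35% (genes known for alternative promoters) to 19.4% (splicing and RNA-binding proteins). No list was tested against that share. One of 17 (5.88%) germ cell genes had several: Dazl, an RNA-binding protein that promotes translation in germ cells. Its peaks were 883 bp apart at starts 744 bp apart whose coding transcripts differ in their first coding base. The downstream peak (chr17:50599799-50599941, score 16.9) lay under an H3K4me3 replicate 1 region of 1005 bp, and the upstream peak shown above (score 23.3), 89 bp before its start, under none. Neither overlapped a replicate 2 peak of TAF4b or H3K4me3.

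Of the general transcription machinery, 2 of 20 (10%) had several: Gtf2h1, a TFIIH subunit, with scores of 19.9 and 8.44 408 bp apart under 1 region, and Polr2a, the largest subunit of RNA polymerase II, with scores of 21.8 and 30.3 411 bp apart. At Polr2a the upstream peak lay under no region and both lay closer to a start of a lncRNA on the opposite strand. Of the chromatin regulators, 3 of 25 (12%) had several: Jarid2, Eed and Kmt2b. The peaks of Eed, a core subunit of PRC2, had scores of 8.44 and 17.4 and lay under no region. Those of Kmt2b, a methyltransferase for H3K4, had scores of 9.43 and 23.3 and lay under 1 region of 2847 bp.

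Of the splicing and RNA-binding proteins, 6 of 31 (19.4%, beside 5.75% over all genes) had several: Hnrnpa1, Hnrnpl, Hnrnpm, Hnrnpu, Srsf1 and Srsf11. Hnrnpl, which regulates exon inclusion, had the highest score of any member peak (64.5, rank 5 of its list) and a weaker peak 1512 bp upstream (10.9). Both lay under an H3K4me3 replicate 1 region of 3501 bp, and neither overlapped a TAF4b replicate 2 peak. The peaks of Hnrnpu were 1325 bp apart with scores of 19.9 upstream and 13.4 downstream. The upstream one was covered in both H3K4me3 replicates and found in TAF4b replicate 2 (score 72.9), and the downstream one in none of these lists. Hnrnpm peaks were 35628 bp apart and Srsf11 peaks 4981 bp apart, under separate regions. Hnrnpa1 and Srsf1 had closely spaced pairs (409 and 356 bp) under 1 region.

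Of the cell cycle and signalling regulators, 3 of 28 (10.7%) had several: Gsk3b, Shc1 and Smad5. The peaks of Gsk3b, a kinase of the Wnt pathway, had scores of 24.8 and 26.3, lay 527 bp apart under a region of 2238 bp, and the upstream one was found in TAF4b replicate 2 (score 48.6). Shc1, an adaptor protein with known alternative promoters, had scores of 31.3 and 7.94 at starts 3199 bp apart, each under a region of its own (2178 and 897 bp). It was 1 of 23 (4.35%) in the list of genes known for alternative promoters. Smad5, a transducer of BMP signals, had scores of 11.4 and 8.93 323 bp apart, and the downstream peak alone was covered, by a region of 500 bp. None of 21 somatic cell markers had a TAF4b replicate 1 promoter peak.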

How the data were processed

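CUT&RUN libraries were analysed from the lists the authors deposited, 1 list for each library. Intervals were annotated by the authors with HOMER on GRCm39 and Ensembl 103 genes, per the file headers of H3K4me3. The TAF4b lists name no build, and GRCm39 was used. HOMER 4.10, Bowtie2 2.3.0, Trim Galore 0.5.0 and SAMtools 1.9 appear in the submitters' processing notes. The peak caller and its settings are not given in the sources used here. The peak score is the authors' deposited value, with no stated scaling, and was compared within a list. The deposited fraction per TAF4b peak (focus ratio) was summarised and is not reported.

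Transcripts were mapped to genes, starts and exons in GENCODE M39. Intervals overlapped at 1 bp or more. Python 3.11.15, pandas 2.3.3 and pysam 0.24.0 were used, tested on simulated intervals. Shares carry 95% Wilson intervals for counting error, peaks are not replicates, and no test was made. The members and lists were chosen with earlier results of these data known. Genes named are those with 3 peaks, the 8 widest and 5 closest pairs, pairs found in TAF4b replicate 2, the 8 highest weaker peaks and listed genes; Dazl, Cic, Rnf44 and Ptprs were drawn and 8 sequences chosen after their values were seen. Alternatives covered score cuts, start rules, overlap and replicate 2.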

Additional observations from a re-analysis of the deposited data

How the results depend on the processing

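No paired analysis was possible because the values are counts and shares with no fitted test that could take a replicate block. TAF4b and H3K4me3 share replicate numbers 1 and 2, but the members were chosen in number 1, and the same rule gave 3 genes in number 2. Of 23 alternative values of the main results 13 moved by less than the interval or factor allowed and 10 moved more. The count of 310 genes fell to 113 with the higher-scoring 50% of TAF4b replicate 1, to 3 in TAF4b replicate 2, and to 165 without peaks closer to a start of another gene, an alternative chosen after seeing the data. It rose to 415, within 1.5 times, when peaks within 1000 bp of the nearest start were counted for that start's gene. The share of pairs at different starts was 35.6% when starts had to be over 500 bp apart and 78.1% by the nearest start of the gene. The share of member peaks under H3K4me3 was 74.8% with promoter-TSS regions, 74.9% with the higher-scoring 50% of regions and 8.25% in H3K4me3 replicate 2, where 3.13% of pairs lay under 1 region. With promoter-TSS regions the member share (471 of 630) was no longer below that of peaks of genes with 1 (3575 of 5081). With the higher-scoring 50% of TAF4b replicate 1, 16.2% of member peaks were found in replicate 2. The cause was not tested, beyond the smaller lists that a score cut or replicate 2 gives. Motif shares moved for 4 of 9 motifs with a 200 bp window, which is longer than a peak. The 2 lists of each antibody differ in length, so a peak absent from replicate 2 may have been below that list's limit.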
